A study of Mus musculus with 6 samples.

Results

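Small nucleolar ribonucleoproteins (snoRNPs) are described here through 9 genes: the box C/D core proteins Fbl, Nop56 and Nop58, the box H/ACA core proteins Dkc1, Nhp2, Nop10 and Gar1, the assembly factor Nufip1 and the cap methylase Tgs1. Each symbol matched 1 probe set, so all 9 genes were measured, of 24704 named genes on the arrays. Snu13, another box C/D core protein, is not among the 9 and had no matched gene on the arrays. They were chosen by symbol, with the knockout against control values of these arrays already known, Tgs1 among the largest falls and snoRNAs among the largest rises. The fold changes and calls of the 9 genes are therefore a description and carry no test of their own.

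The knockout lungs came from 3 Nfat5(EC)-/- mice, in which the transcription factor NFAT5 was deleted in endothelial cells, and the control lungs from 3 Nfat5fl/fl mice. Mice of both sexes, 10 to 12 weeks old, were injected on 5 days, the knockout with tamoxifen at 1 mg per day and the control with the solvent miglyol alone, so genotype and tamoxifen cannot be told apart. After 2 to 3 weeks all mice were kept in hypoxia for 7 days, and perfused whole lung was lysed for RNA. The design names 4 mice per group and leaves out preparations with other tissue, thymus for instance, or with a weak expression response to hypoxia, so arrays were selected partly on expression; the sources used here name neither the Cre driver nor the sex of each mouse.

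A snoRNA guides the chemical modification of ribosomal and spliceosomal RNA, and a small set of proteins does the work. In box C/D particles fibrillarin (Fbl) methylates the ribose of the target base while Nop56 and Nop58 form the scaffold. In box H/ACA particles dyskerin (Dkc1) turns uridine into pseudouridine with Nhp2, Nop10 and Gar1 as partners, and the same proteins bind the telomerase RNA. Nufip1 brings C/D proteins to the assembly machinery, and Tgs1 trimethylates the cap of small RNAs that have their own promoters. Most other mammalian snoRNAs are cut from introns, among them introns of Nop56, Nop58 and Dkc1.

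Expression is given as log2 values from RMA, a summary of each probe set over its probes, and every array shared a median of 2.98 and a lower quartile of 2.02. Values near or below the lower quartile may lie at background, since no detection calls came with the table. Nfat5 stood at 4.46, 4.48 and 3.89 on knockout arrays 1, 3 and 4, against 6.65, 6.58 and 6.30 on control arrays 1, 3 and 4, a log2 fold change of −2.23 ± 0.23 (limma's SE); where its probes lie relative to the deleted part is unknown here. Over all genes, 6292 passed limma's adjusted p of 0.05, or 25.5%, with 12.5% higher and 13% lower in the knockout. Xist was high on control replicate 1 alone (8.22), at 2.03 to 2.28 on the knockout arrays and 2.36 and 2.37 on the other controls. The surfactant gene Sftpc, a lung marker, averaged 11.76 in the knockout and 12.20 in the control. Of 7 endothelial markers Pecam1 (−1.59), Cdh5 (−1.52) and Tek (−2.01) were lower and Cldn5 (0.91), Vwf (1.61) and Egfl7 (1.06) higher, with a median log2 fold change of −0.91 over the list. Of 7 thymus markers Psmb11 (−0.76) was lower and Foxn1 (1.06) higher, with a median of −0.15. Control replicate 1 stood apart for Rag1, at 3.53 against 1.66 to 1.97 on the other arrays, and for Dntt, at 2.72 against 1.70 to 2.09. Psmb11 and Rag2 were also highest on that array, while Foxn1, Ptcra and Cd8b1 were not. Their part in the values below was not tested, and in whole lung fewer cells of a type cannot be told from less RNA per cell.

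Among the 9 genes, Tgs1, Nop56, Nufip1 and Dkc1 (4 of 9) passed the threshold with lower levels in the knockout and Nhp2 (1 of 9) with a higher level, where 13% of all genes were lower and 12.5% higher. Fbl, Gar1, Nop10 and Nop58 did not pass. The groups did not overlap for the 4 lower genes, for Nhp2 or for Gar1, 6 in all, while the groups did not overlap for 41.9% of all genes, and 20% lay wholly lower and 21.9% wholly higher. The median log2 fold change was −0.79 over the 9 genes and 0.04 over all genes. Calls were more frequent among brighter genes: of 12352 genes above the median of mean level, 5788 passed when fitted alone. In that fit 5 of the 8 members above the median were lower and 1 was higher. The calls depended on the control arrays. Without control replicate 1, as without control replicate 3, the lower count fell to 1, Tgs1, and without control replicate 4 it was 2, Tgs1 and Dkc1. Nhp2 passed in each of these fits. The number of genes past the threshold over the whole table was 3141 without control replicate 1 and 2882 without control replicate 3.

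**Figure D1:**
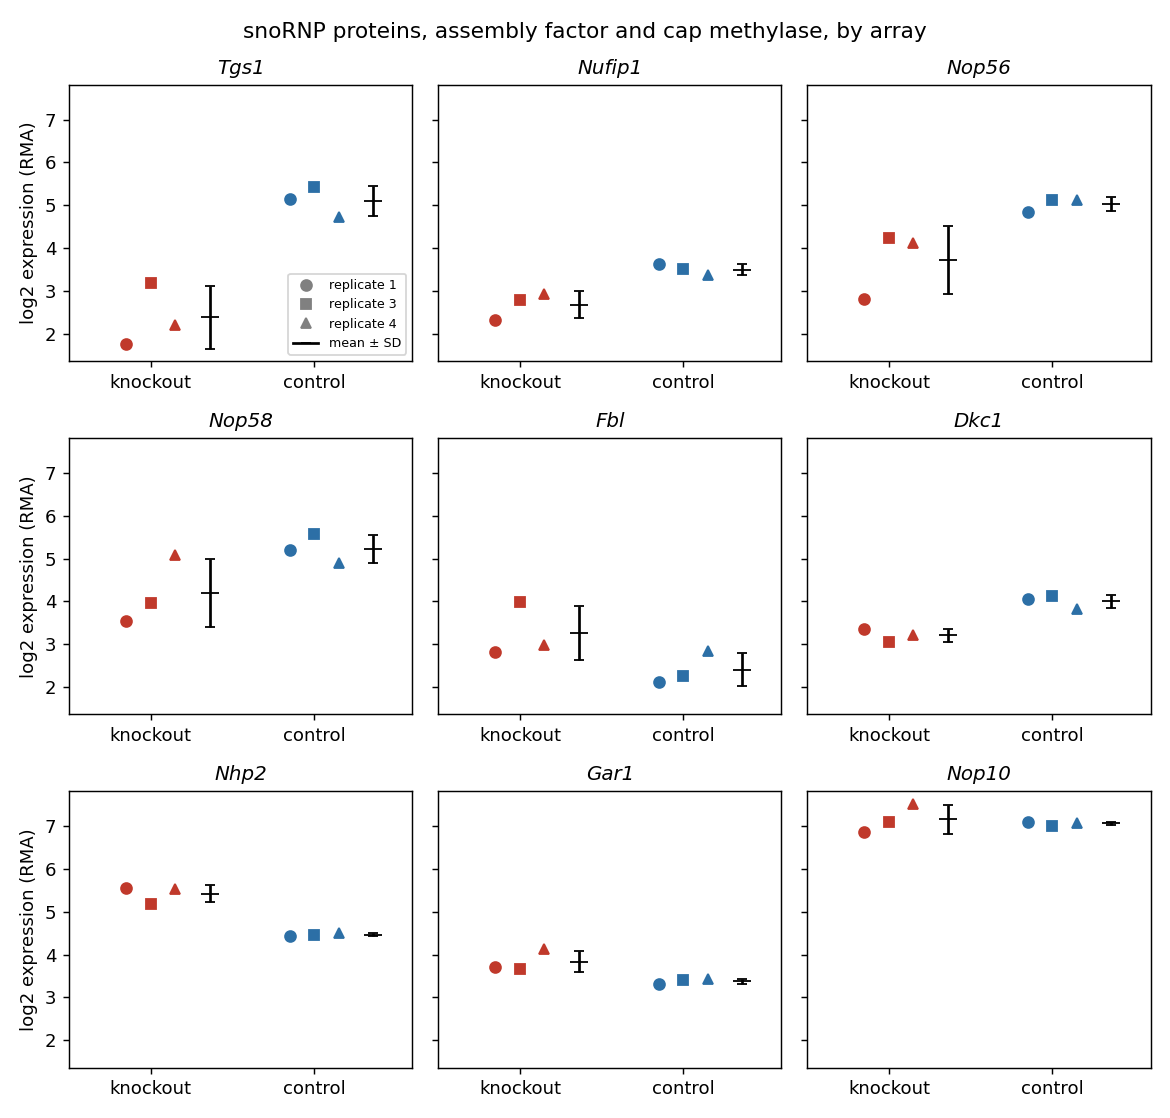
Log2 expression (vertical axis) of the 9 genes on each knockout array (left, red) and control array (right, blue), with the replicate number as symbol and the group mean ± SD beside the points. Tgs1, Nufip1, Nop56 and Dkc1 lie lower on every knockout array than on any control array, and Nhp2 and Gar1 lie higher; levels are not compared between genes.

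Tgs1, the methylase that adds the trimethylguanosine cap, had the lowest fold change of the 9. Its log2 value was 1.76, 3.19 and 2.20 on knockout arrays 1, 3 and 4, against 5.14, 5.42 and 4.73 on control arrays 1, 3 and 4. Every knockout array lay below every control array, by a gap of 1.54 between the closest pair. The group means were 2.39 ± 0.73 in the knockout and 5.10 ± 0.35 in the control (SD, n = 3 each). The log2 fold change of −2.71 ± 0.36 (SE) corresponds to a level 6.54-fold lower, and 10 genes of 24704, Tgs1 among them, had a change as low. Knockout replicate 1 stood below the lower quartile of 2.02, so the size of the fall is uncertain. It ran from −3.11 to −2.40 when 1 array was left out and passed in each of these fits.

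Nufip1, which recruits C/D proteins to the particle under assembly, was lower as well. It read 2.32, 2.80 and 2.94 on knockout arrays 1, 3 and 4, against 3.63, 3.50 and 3.37 on control arrays 1, 3 and 4. The knockout arrays all lay below the controls, and the log2 fold change was −0.82 ± 0.22 (SE), a level 1.76-fold lower. It lost its call without any 1 of the 3 control arrays.

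The 3 measured box C/D core genes did not move together. Nop56 read 2.82, 4.25 and 4.12 on knockout arrays 1, 3 and 4, against 4.83, 5.12 and 5.12 on control arrays 1, 3 and 4. All knockout arrays were lower, replicate 1 by far the most, and the log2 fold change was −1.29 ± 0.35 (SE). Without knockout replicate 1 it was −0.84 and still past the threshold, and without any 1 control array it did not pass. Nop58, its paralogous partner, read 3.54, 3.95 and 5.08 on knockout arrays 1, 3 and 4, against 5.20, 5.57 and 4.91 on control arrays 1, 3 and 4. Knockout replicate 4 lay within the control range and the other knockout arrays below it. The log2 fold change of Nop58 was −1.03 ± 0.37, which did not pass, and −1.48 without knockout replicate 4, which did.

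Fbl, the methyltransferase of the particle, had a fold change of the other sign. It read 2.83, 3.99 and 2.97 on knockout arrays 1, 3 and 4, against 2.12, 2.25 and 2.85 on control arrays 1, 3 and 4. Knockout replicate 3 stood well above the rest, and knockout replicate 1 lay just under control replicate 4. The log2 fold change was 0.86 ± 0.33, did not pass, and was 0.49 without knockout replicate 3. The lowest control values lie close to the lower quartile of the arrays. Within arrays, the fold change of Fbl exceeded that of Nop56 by 2.15 ± 0.39 and that of Nop58 by 1.89 ± 0.74 log2 units (SE). Nop56 and Nop58 differed by −0.26 ± 0.44. These SEs come from the within-array differences without limma, unlike those of single genes.

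The 4 box H/ACA core genes also parted, with the enzyme lower and a partner higher. Dkc1, the pseudouridine synthase, read 3.36, 3.06 and 3.21 on knockout arrays 1, 3 and 4, against 4.05, 4.12 and 3.83 on control arrays 1, 3 and 4. All 3 knockout arrays were lower, and the spread was as narrow in the knockout as in the control (SD 0.15 in both). The log2 fold change was −0.79 ± 0.19 (SE), a level 1.73-fold lower. Dkc1 lies on the X chromosome, and without control replicate 1, the array with high Xist, the change was −0.77 and did not pass. Nor did it without control replicate 3, where Xist is low (−0.73). Whether the sex of the mice had a part in the change of Dkc1 was not tested.

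Nhp2, which binds the RNA beside Dkc1, was the 1 gene of the 9 past the threshold upward. It read 5.55, 5.19 and 5.52 on knockout arrays 1, 3 and 4, against 4.44, 4.46 and 4.50 on control arrays 1, 3 and 4. The control arrays were nearly equal (SD 0.035) and all knockout arrays stood above them. The log2 fold change was 0.95 ± 0.19 (SE), a level 1.94-fold higher, and passed in each fit with 1 array left out (0.89 to 1.07).

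Gar1, which helps release the modified RNA, read 3.72, 3.67 and 4.12 on knockout arrays 1, 3 and 4, against 3.31, 3.40 and 3.42 on control arrays 1, 3 and 4. The groups did not overlap, but the log2 fold change of 0.46 ± 0.20 (SE) did not pass. Nop10, the smallest core protein, read 6.85, 7.10 and 7.52 on knockout arrays 1, 3 and 4, against 7.10, 7.01 and 7.06 on control arrays 1, 3 and 4. The knockout arrays lay on both sides of the controls, with a log2 fold change of 0.10 ± 0.22. Within arrays, the fold change of Nhp2 exceeded that of Dkc1 by 1.74 ± 0.12 log2 units. That of Gar1 exceeded it by 1.25 ± 0.19 and that of Nop10 by 0.89 ± 0.26. These SEs were again computed without limma and are not comparable with those of single genes.

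**Figure D2:**
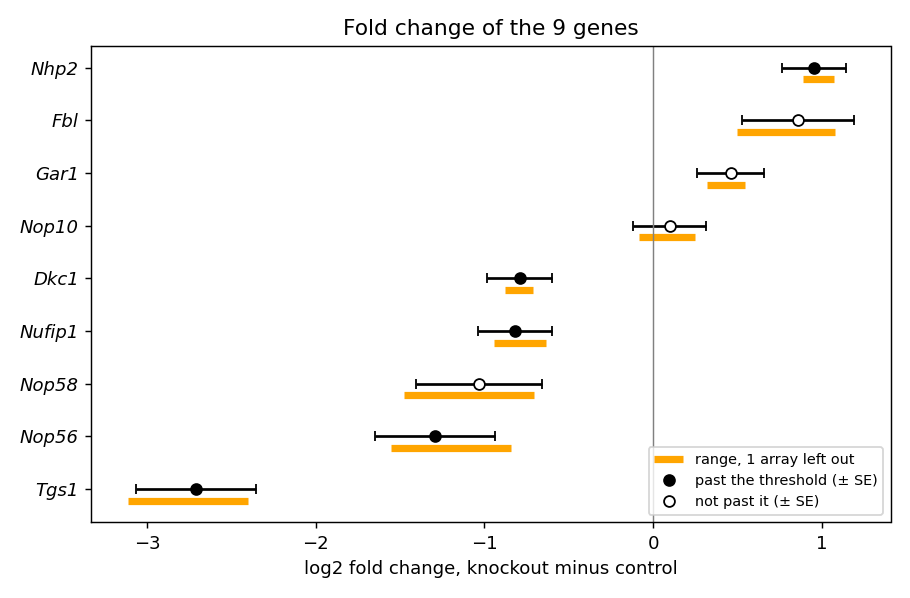
Log2 fold change, knockout minus control (horizontal axis), of each gene with limma's SE (bars); filled points passed an adjusted p of 0.05 and open points did not, and orange bars span the values with 1 array left out. Tgs1 lies at −2.71 and Nhp2 at 0.95, and Nop10 is the only one of the 9 whose orange bar crosses 0.

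The knockout arrays varied more than the controls for 8 of the 9 genes, and 67.0% of all genes had the larger SD in the knockout. Nop58 (SD 0.79), Nop56 (0.79) and Tgs1 (0.73) were among the most variable, with 5.25%, 5.37% and 7.11% of all genes more variable in the knockout, where the median SD was 0.30. Knockout replicate 1 was the lowest knockout array for 6 of the 9 genes, Fbl, Nop56, Nop58, Nop10, Nufip1 and Tgs1. Knockout replicate 3 was the lowest for the other 3, Dkc1, Nhp2 and Gar1. In the control the lowest array was replicate 1 for 4 genes, replicate 4 for 4 and replicate 3 for 1. How often each array was lowest over all genes was not counted, so these counts have no background share.

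The 9 genes lie on 8 chromosomes, with coordinates of RefSeq on GRCm38.p6, and all are protein coding. Tgs1 (chromosome 4, 3574841 to 3616624) is the longest at 41.8 kb, followed by Nop58 (chromosome 1, 59684961 to 59711510) at 26.6 kb, Nufip1 (chromosome 14, 76110891 to 76137379) at 26.5 kb and Dkc1 (chromosome X, 75095854 to 75109776) at 13.9 kb. Fbl (chromosome 7, 28168893 to 28179269) spans 10.4 kb, Gar1 (chromosome 3, 129824912 to 129831407) 6.50 kb, Nop56 (chromosome 2, 130274367 to 130279313) 4.95 kb, Nhp2 (chromosome 11, 51619773 to 51623718) 3.95 kb and Nop10 (chromosome 2, 112261926 to 112262898) 0.97 kb. The 4 longest genes all had negative fold changes, and of the 5 shorter ones Nop56 alone did. Over all protein-coding genes split into 5 bins by length, the median log2 fold change was −0.33 in the longest bin and 0.17 in the shortest. With each array's trend over gene length removed, Tgs1 stood at −2.47, Nop56 at −1.58, Dkc1 at −0.91, Nufip1 at −0.72 and Nhp2 at 0.66, all past the threshold. Fbl (0.67), Gar1 (0.20), Nop58 (−0.94) and Nop10 (−0.01) did not pass in that fit either.

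Promoter sequences of 7 of the 9 genes were available from RefSeq on GRCm38.p6, each running from 250 bases before the start site to 50 after it. Shown are the 4 that hold the letters CCGGAA, the core of the site bound by ETS transcription factors, in capitals on either strand. They belong to 2 genes with negative fold changes, Nop58 (chr1:59684756-59685055, plus strand) and Nufip1 (chr14:76110641-76110940, plus strand), and to 2 with positive ones, Nhp2 (chr11:51619523-51619822, plus strand) and Gar1 (chr3:129831347-129831646, minus strand). Each is written 5′ to 3′ along its gene.
Nop58: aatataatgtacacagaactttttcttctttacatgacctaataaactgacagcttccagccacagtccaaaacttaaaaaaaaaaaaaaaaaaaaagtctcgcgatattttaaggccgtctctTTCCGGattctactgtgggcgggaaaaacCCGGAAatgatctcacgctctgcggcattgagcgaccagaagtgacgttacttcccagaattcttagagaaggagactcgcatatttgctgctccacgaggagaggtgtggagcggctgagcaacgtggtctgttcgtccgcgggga
Nufip1: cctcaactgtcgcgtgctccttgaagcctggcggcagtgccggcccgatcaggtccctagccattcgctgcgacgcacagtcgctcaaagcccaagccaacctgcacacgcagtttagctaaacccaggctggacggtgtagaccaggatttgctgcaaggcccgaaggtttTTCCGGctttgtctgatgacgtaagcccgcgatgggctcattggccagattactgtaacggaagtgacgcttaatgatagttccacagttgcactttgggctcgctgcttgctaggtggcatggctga
Nhp2: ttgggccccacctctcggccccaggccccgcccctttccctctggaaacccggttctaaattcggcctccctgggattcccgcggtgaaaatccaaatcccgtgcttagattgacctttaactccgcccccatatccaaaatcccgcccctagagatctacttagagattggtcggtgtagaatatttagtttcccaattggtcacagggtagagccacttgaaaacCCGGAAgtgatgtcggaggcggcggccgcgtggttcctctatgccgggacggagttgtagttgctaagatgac
Gar1: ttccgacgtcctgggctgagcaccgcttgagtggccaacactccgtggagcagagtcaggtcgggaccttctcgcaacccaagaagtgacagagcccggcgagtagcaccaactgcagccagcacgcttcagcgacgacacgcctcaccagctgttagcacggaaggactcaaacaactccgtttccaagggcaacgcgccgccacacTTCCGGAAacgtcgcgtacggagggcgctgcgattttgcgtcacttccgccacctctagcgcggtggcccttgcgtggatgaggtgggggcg

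The ETS letters were found in 4 of the 7 promoters, against 19.1% of 17492 promoters of protein-coding genes and 15.2% of all 27025, taking 1 promoter per gene. In Gar1 the capitals are 2 overlapping matches, 1 on each strand, and Nop58 holds 2 separate ones. The letters GGAAAA, the core of the sites bound by NFAT proteins, were found on either strand in Nop58 and Nufip1, 2 of 7, against 22.8% of coding promoters; in Nufip1 this match overlaps the ETS letters. The E-box CACGTG, bound by Myc and its relatives, was found in 0 of 7, against 7.90%. The letters CCAAT, of the CCAAT box, were found in 5 of 7 (Nop10, Nop56, Nhp2, Nufip1 and Dkc1), against 39.0%. In Dkc1 and Nop10 the only match starts after the start site, by 25 and 2 bases. TGACG, the core of the cAMP response element, was found in 3 of 7 (Nop58, Gar1 and Nufip1), against 23.8%. These are letter matches and no factor's binding was measured.

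The genes Nop56 and Nop58 contain snoRNA genes, and the 4 of these on the arrays were all higher in the knockout. So were 53 of the 65 genes named Snord, while 12.5% of all genes were higher. By RefSeq coordinates, which came without strand, 5 snoRNA genes lie within Nop56, 4 within Nop58 and 1 within Dkc1, and 2 of those in Nop56, 2 in Nop58 and 0 in Dkc1 had a named probe set. Snord57 (chromosome 2, 130278026 to 130278088), inside Nop56, read 10.70, 10.25 and 10.28 on knockout arrays 1, 3 and 4, against 8.25, 8.31 and 8.16 on control arrays 1, 3 and 4. Snord110 (chromosome 2, 130275515 to 130275573), also inside Nop56, read 10.13, 9.93 and 9.43 on knockout arrays, against 6.96, 7.23 and 7.53 on control arrays. Both were higher on every knockout array, by 2.17 ± 0.20 and 2.59 ± 0.25 log2 units (SE).

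Inside Nop58, Snord11 (chromosome 1, 59704808 to 59704870) read 8.88, 8.54 and 7.75 on knockout arrays 1, 3 and 4, against 5.22, 5.38 and 5.49 on control arrays 1, 3 and 4. Snord70 (chromosome 1, 59691958 to 59692010) read 5.96, 6.56 and 6.40 on knockout arrays, against 3.39, 3.81 and 3.97 on control arrays. The groups lay far apart for both, with log2 fold changes of 3.03 ± 0.29 and 2.59 ± 0.24 (SE). Within arrays, Snord57 exceeded its containing gene Nop56 in fold change by 3.46 ± 0.61 and Snord110 did by 3.88 ± 0.62. Against Nop58 the difference was 4.06 ± 0.83 for Snord11 and 3.62 ± 0.49 for Snord70. The SEs of these differences were computed without limma. Where the probes of Nop56 and Nop58 lie relative to these snoRNAs is unknown here. All 4 calls held with each array left out.

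**Figure D3:**
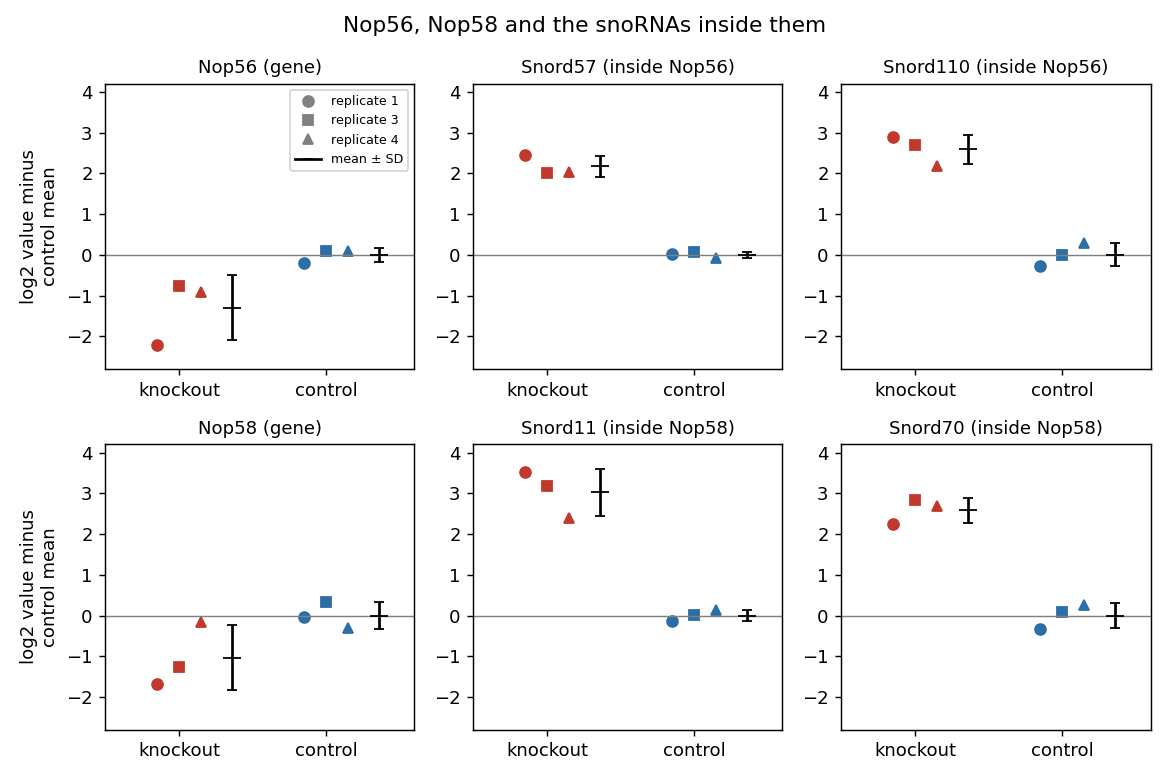
Log2 value minus the control mean of the same gene (vertical axis) for Nop56 (top row) and Nop58 (bottom row) and for the snoRNAs inside them, on each knockout array (left, red) and control array (right, blue), with mean ± SD beside the points. The 4 snoRNAs lie above 0 on every knockout array, and Nop56 and Nop58 lie below 0 on every knockout array.

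The snoRNAs that these proteins bind were mostly higher in the knockout. Of 65 genes named Snord, the C/D class, 53 were higher and 0 lower, with array medians of 8.54, 7.48 and 7.27 on knockout arrays 1, 3 and 4, against 4.57, 4.95 and 5.03 on control arrays 1, 3 and 4. Of 34 genes named Snora, the H/ACA class, 27 were higher and 0 lower. Their array medians were 5.98 to 6.65 in the knockout and 3.83 to 3.99 in the control. Over all genes 12.5% were higher and 13% lower. At an unadjusted p under 0.05 in limma's fit, 55 Snord and 29 Snora genes passed in either direction, 84.6% and 85.3% of each class, against 37.5% of all genes.

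Small RNAs with their own promoters, whose caps Tgs1 trimethylates, are given next; apart from Terc they were chosen after their values were seen. Rnu3a, a U3 RNA of early ribosomal RNA cleavage, read 7.63, 6.67 and 6.52 on knockout arrays 1, 3 and 4, against 3.30, 3.51 and 3.00 on control arrays 1, 3 and 4. Snord13, the U13 RNA, read 9.59, 8.67 and 9.99 on knockout arrays, against 4.01, 4.95 and 4.53 on control arrays. The groups were far apart for both, by 3.67 ± 0.31 and 4.92 ± 0.36 log2 units (SE), and the change of Snord13 was the largest rise of any named gene. Snord118, the U8 RNA, read 4.04, 4.02 and 4.63 on knockout arrays, against 2.05, 2.94 and 2.64 on control arrays, a change of 1.68 ± 0.28.

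Terc, the telomerase RNA, read 4.11, 3.58 and 3.71 on knockout arrays 1, 3 and 4, against 3.33, 2.78 and 2.56 on control arrays 1, 3 and 4. Its log2 fold change of 0.91 ± 0.25 passed, but not without control replicate 3, control replicate 4 or knockout replicate 1. Tert, the reverse transcriptase, named here outside the rule for naming genes, read 2.87, 2.14 and 1.95 on knockout arrays against 2.16, 2.43 and 1.99 on control arrays, a change of 0.12 ± 0.27 that did not pass. Rnu11, the U11 RNA of the minor spliceosome, read 8.30, 7.89 and 7.12 on knockout arrays against 7.73, 7.72 and 7.86 on control arrays, a change of −0.0023 ± 0.29 that did not pass. The arrays report RNA level, and the cap itself was not measured.

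**Figure D4:**
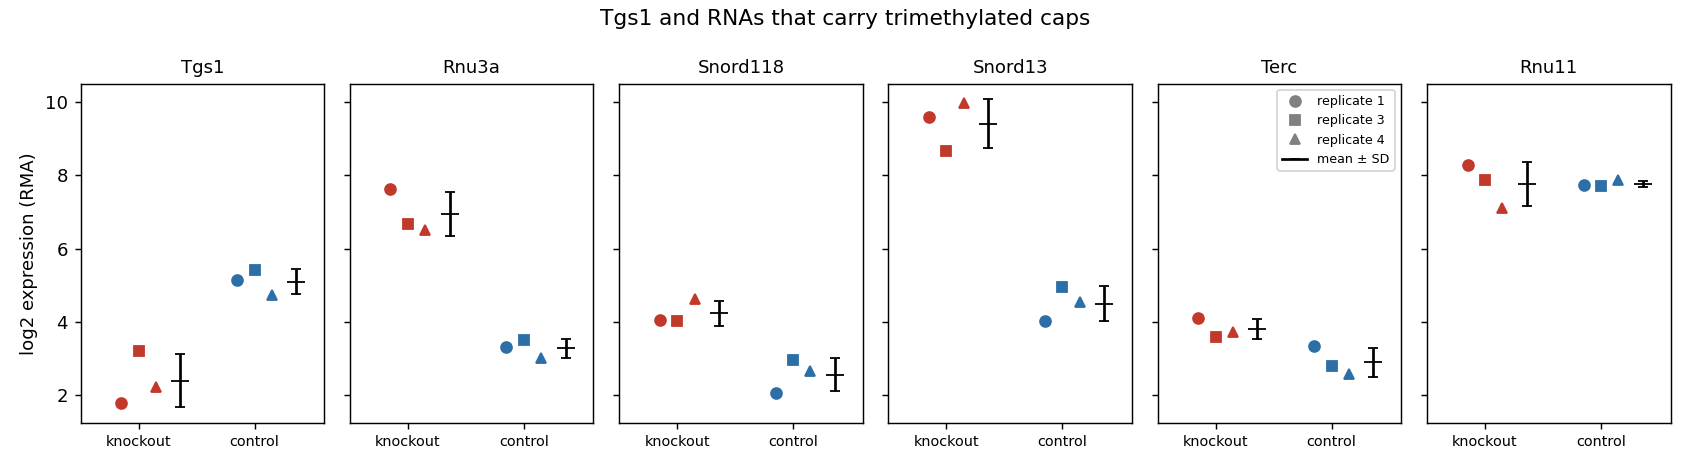
Log2 expression (vertical axis) of Tgs1 and of 5 RNAs that carry trimethylated caps, on each knockout array (left, red) and control array (right, blue), with mean ± SD beside the points. Tgs1 lies lower on every knockout array, Rnu3a, Snord118, Snord13 and Terc lie higher, and the groups overlap for Rnu11.

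The rest of the machinery was read from lists chosen with earlier results of these data known, without a test of a list as a set. Of 10 measured assembly factors and chaperones, of 13 listed, 1 was higher and 1 lower. This was 10.0% each way, below the 12.5% and 13% of all genes, and the median of their log2 fold changes was 0.39. Not matched were the C/D core protein Snu13, Nopchap1 and Hsp90ab1. Ruvbl2, an ATPase of the complex that builds C/D particles, was higher by 0.89 ± 0.20, and this call was lost without control replicate 3. Shq1, the chaperone that holds Dkc1 before assembly, was lower, at −0.64 ± 0.20, and lost its call with any 1 array left out or with the length trend removed (−0.23). Naf1, which takes the place of Gar1 in immature H/ACA particles and is named outside the rule, stood at 0.41 and did not pass.

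Among 20 genes of cap binding, nuclear export, the Cajal body and the SMN complex, 4 were lower and 1 higher, with a median of −0.04, and the share called in either direction, 25%, was near the 25.5% of all genes. Xpo1, the exporter that also carries Tgs1 and box C/D RNAs within the nucleus, was lower, at −1.32 ± 0.25. Snupn, the import adaptor that reads the trimethylated cap, was lower, at −1.09 ± 0.23. It read 1.71 on knockout replicate 1, below the lower quartile of 2.02, so the size of this fall is uncertain. Ncbp1, a subunit of the complex that binds the cap before it is trimethylated, was lower, at −1.50 ± 0.36. Its partner subunit Ncbp2, named outside the rule, stood at 0.09 ± 0.24 and did not pass. Ddx20, a helicase of the SMN complex, was lower, at −0.83 ± 0.24. Zc3h18, a cofactor of the cap-binding complex, was higher, at 1.28 ± 0.30. Ncbp1 and Ddx20 lost their calls without any 1 control array, Ddx20 also without knockout replicate 3 or 4, and Zc3h18 without control replicate 3 or 4.

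The 35 proteins of the small subunit processome, which assembles around the U3 RNA, were split, with 11 lower (31.4%), 5 higher (14.3%) and a median of −0.51, where 13% of all genes were lower and 12.5% higher. Rrp9, the protein that binds U3 specifically, read 4.97, 4.93 and 4.86 on knockout arrays 1, 3 and 4, against 3.45, 3.30 and 3.77 on control arrays 1, 3 and 4. It was higher on every knockout array, by 1.42 ± 0.20. Rrp7a (1.66 ± 0.27), Nol6 (1.26 ± 0.24) and Noc4l (0.91 ± 0.23) were also higher. Bms1, a GTPase of the processome, was lower (−1.64 ± 0.28), as were Utp14a (−1.45 ± 0.20), Utp18 (−1.35 ± 0.24) and Utp6 (−1.26 ± 0.23). Noc4l lost its call without control replicate 1 or 3, without knockout replicate 3 or 4, and with the length trend removed.

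Of 21 genes of the nuclear exosome and its helpers, which trim snoRNA ends and degrade excess RNA, 7 were lower (33.3%) and 3 higher (14.3%). Their median log2 fold change was −0.51, and over all genes 13% were lower and 12.5% higher. The exosome helicase Mtrex was lower (−1.49 ± 0.25), as were its cofactor Zcchc7 (−1.41 ± 0.22), the poly(A) polymerase Tent4b (−1.03 ± 0.21) and the catalytic subunit Dis3 (−1.19 ± 0.26). The higher genes were 3 subunits of the exosome ring, Exosc5 (0.93 ± 0.25), Exosc4 (0.82 ± 0.21) and Exosc6 (0.60 ± 0.18). The other ring subunits, named outside the rule, had negative fold changes that did not pass: Exosc7 (−0.51), Exosc8 (−0.77) and Exosc9 (−0.82). Dis3, Exosc4, Exosc5 and Exosc6 lost their calls without control replicate 1 or control replicate 3, Exosc5 and Exosc6 also without control replicate 4, and Exosc6 without knockout replicate 1 or 4 as well. Exosc4, Exosc5 and Exosc6 did not pass with the length trend removed, nor did Exosc6 with the replicate block (0.60).

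RNA polymerase I and its factors changed at 1 of 12 measured genes of 15 listed, Taf1d, a subunit of its selectivity factor, which was lower (−1.36 ± 0.20); this share of 8.33% was below the 25.5% called over all genes. Of 5 measured relatives in protein fold of 6 listed, 2 were lower: Secisbp2l (−1.42 ± 0.30) and the splicing protein Prpf31 (−0.83 ± 0.27), which shares a domain with Nop56 and Nop58 and lost its call without control replicate 1, 3 or 4 or knockout replicate 1 or 3. Over all 105 measured genes of these lists 26 were lower and 11 higher, or 24.8% and 10.5%, with a median of −0.22; over all genes the shares were 13% lower and 12.5% higher, and the median was 0.04. The counts were 12 and 3 without control replicate 3 and 14 and 6 without control replicate 1, and the higher count was 6 without control replicate 4. With the length trend removed the higher count was 5. In the fit of genes above the median of mean level, 24 of 88 list genes were lower and 12 higher. In that fit 5788 of all 12352 genes passed in either direction.

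**Figure D5:**
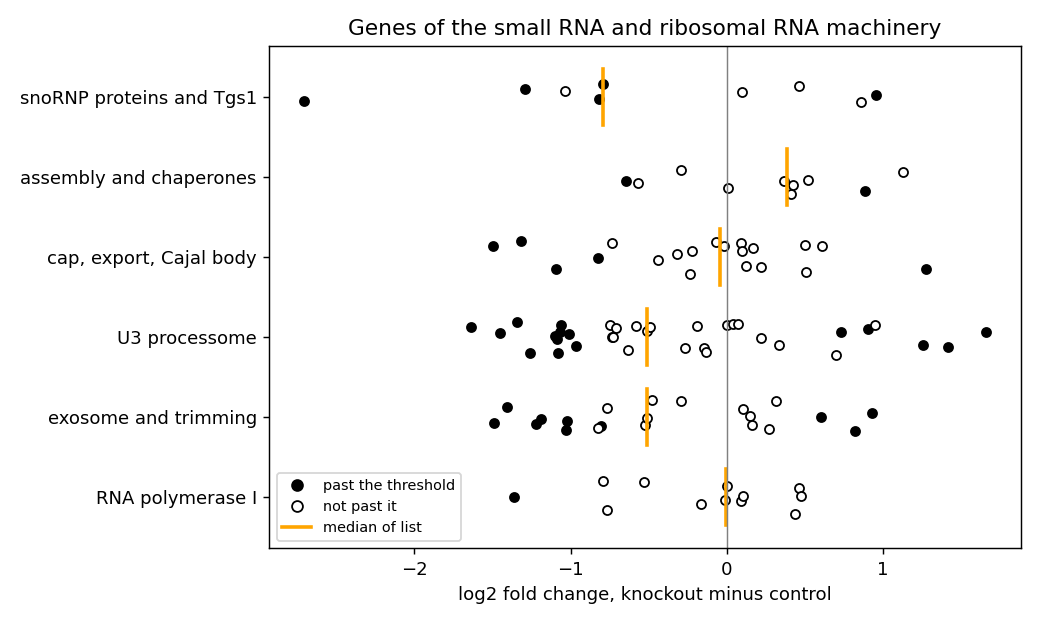
Log2 fold change, knockout minus control (horizontal axis), of every measured gene in 6 lists (rows), 1 point per gene, filled where it passed an adjusted p of 0.05; vertical position within a row has no meaning, and orange lines are list medians. The lists hold points on both sides of 0, with medians from −0.79 for the snoRNP proteins and Tgs1 to 0.39 for assembly factors and chaperones.

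The genes most like Tgs1 over the 6 arrays were found by the root mean square distance between log2 profiles, each centred on its own mean. The nearest was Mkln1 (0.21 log2 units), followed by Bod1l (0.23), Btaf1 (0.25), D5Ertd579e (0.27) and the long noncoding RNA Gm10400 (0.29). Mkln1 read 2.71, 3.81 and 3.14 on knockout arrays 1, 3 and 4, against 5.83, 5.76 and 5.53 on control arrays 1, 3 and 4. As for Tgs1, its lowest array was knockout replicate 1, and knockout replicate 3 was the highest of the knockouts. Mkln1 was picked by its distance over these same arrays, which favours such a shared order. The profiles rest on 6 arrays in 2 separate groups.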

How the data were processed

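Whole-lung RNA from 3 knockout and 3 control mice was measured on single-colour Affymetrix arrays with biotin-labelled cRNA. Per the submitters' processing notes the authors made the deposited log2 values with RMA; the sources used here do not say which version or which probe set definition. The columns were found to share quantiles to within 0.0018. No detection calls were used, and the number of arrays limits precision. Of 25428 probe sets, 1 symbol was annotated for 24705, several for 0 and none for 723; the brighter of 2 probe sets sharing a symbol was kept, leaving 24704 genes. Entrez identifiers matched RefSeq (GRCm38.p6) for 24673.

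Groups were compared by lmFit and eBayes of limma 3.58.1, run under R 4.3.3, with Benjamini-Hochberg adjustment over all genes at 0.05 and no filter on dim genes. The procedure was tested on simulated data. The labels name no litter or donor, so the errors measure the spread between these arrays. Errors of a difference between a pair of genes were computed from within-array differences, without limma. Genes named are the 9 members, Nfat5, up to 4 called genes of smallest p per direction in each pathway list, snoRNAs inside members, and the 5 profiles nearest Tgs1; exceptions are marked, and Xist and the marker genes were named outside this rule after their values were seen. Members and lists were chosen with earlier results of these data known. Of the marker lists not described in the report, the numbers higher and lower were 0 and 2 of 4 for alveolar type 1 cells. They were 1 and 2 of 4 for ciliated cells, 0 and 1 of 4 for macrophages and 0 and 0 of 4 for smooth muscle. For T cells they were 0 and 1 of 4, for B cells 1 and 0 of 3 and for erythroid cells 0 and 0 of 2. Over all genes 12.5% were higher and 13% lower. Alternatives covered filters, variance models, array weights, a replicate block, gene sets tested, length trend (lowess, span 0.3), scaling, threshold and leaving out each array.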

Additional observations from a re-analysis of the deposited data

How the results depend on the processing

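Tgs1 and Nhp2 kept their direction and stayed past the threshold in all 16 alternatives for Tgs1 and all 16 for Nhp2, the threshold of 0.01 included. Nop56 and Nufip1 lost their calls in 4 alternatives each and Dkc1 in 3. The lower count of 4 among the 9 genes was 1 at an adjusted p of 0.01 and 1 to 5 with 1 array left out; the higher count of 1 was 2 with array weights, where Fbl passed, and 1 in every fit with 1 array left out. Nop58 passed with array weights, among genes above the median level and without knockout replicate 4. Nop10, never past the threshold, changed sign with the length trend removed (−0.011) and without knockout replicate 4 (−0.084), within a range of −0.084 to 0.25 with 1 array left out. Over all genes the count of 6292 was 2560 at 0.01 and 2882 to 6155 with 1 array left out. For the pathway lists the counts of 11 higher and 26 lower were 3 and 13 at 0.01, and 3 to 12 and 12 to 26 with 1 array left out; the higher count was 5 with the length trend removed. Fbl was below the median of mean level and was not tested there.

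No pairing of the arrays by replicate number was visible: deviations from the group means correlated over genes at 0.062, −0.013 and 0.0038 for numbers 1, 3 and 4. Between arrays of different number the correlations ran from −0.11 to 0.11. With 3 arrays per group this check is weak and cannot exclude pairing. With the replicate block the 9 genes gave 4 lower and 1 higher, and 6082 genes passed in all. The 6 arrays and the lack of detection calls limit what can be said of dim values, such as Tgs1 in the knockout and Fbl in the control.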
